A study of Homo sapiens with 4 samples.

Results

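The 4 mature miRNAs linked to inflammation, hsa-miR-21-5p, hsa-miR-146a-5p, hsa-miR-146b-5p and hsa-miR-155-5p, were followed across HCT116 and RKO, human cell lines from colorectal cancers, and across HCT116-R and RKO-R, derived from them as acquired radioresistant lines. They were taken by name as miRNAs tied to the NF-kB and STAT3 pathways, and they are 4 of the 1474 miRNAs that had at least 1 count in at least 1 library. Small RNA of 18 to 30 nt was sequenced from the 4 lines, with 1 library per line. Per the study's methods, the radioresistant lines were made by repeated irradiation of the parental cells with 4 Gy to a total dose of 40 Gy. They were then kept for at least 3 weeks without irradiation before any assay. HCT116 and RKO cells were not irradiated. Each radioresistant line stands for 1 selection of its parental line. No line had a replicate library, so tests between libraries compare those libraries and not the conditions, and fits of all 4 libraries have no replicate spread behind them.

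miRNAs are short RNAs that guide Argonaute proteins to messenger RNAs, mainly through the seed at their 5′ end, and lower the output of those messages. NF-kB induces miR-146a and miR-155, miR-146a and miR-146b repress TRAF6 and IRAK1 upstream of NF-kB, and miR-155 represses the cytokine signalling inhibitor SOCS1. STAT3 and AP-1 drive transcription of miR-21, which represses the tumour suppressor PDCD4 and is abundant in many epithelial cancers, colorectal cancer among them.

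The mature sequences are shown because the seeds separate the miRNAs by their likely targets and because miR-146a-5p and miR-146b-5p are nearly the same molecule. They are RefSeq sequences on the GRCh38.p14 build, all on the plus strand, with the seed (bases 2 to 8) in capitals.
hsa-miR-21-5p, chr17:59841273-59841294: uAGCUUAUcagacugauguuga
hsa-miR-146a-5p, chr5:160485372-160485393: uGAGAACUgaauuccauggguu
hsa-miR-146b-5p, chr10:102436520-102436542: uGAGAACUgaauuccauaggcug
hsa-miR-155-5p, chr21:25573983-25574006: uUAAUGCUaaucgugauagggguu
miR-146a-5p and miR-146b-5p shared the seed and their first 17 bases, and 20 of the 22 bases compared were identical. Counted from base 1 at the 5′ end, the substitutions from miR-146a-5p to miR-146b-5p were G18A and U21C. A read of either could be divided between them by the counting, so the levels of each alone are less certain than their sum. miR-21-5p and miR-155-5p shared a seed with no other member.

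In the GENCODE annotation (release 29, GRCh38), the MIR21 hairpin at chr17:59841266-59841337 overlapped an exon of the protein-coding gene VMP1 on the same strand. The MIR146A hairpin at chr5:160485352-160485450 and the MIR155 hairpin at chr21:25573980-25574044 overlapped exons of the long noncoding RNA genes MIR3142HG and MIR155HG. The MIR146B hairpin at chr10:102436512-102436584 overlapped no annotated host gene, and the nearest protein-coding gene, CUEDC2, was 3851 bp away. The host gene promoters were searched because the miRNAs were chosen for their link to NF-kB and STAT3, over 250 bases before to 50 bases after the start of each host gene in RefSeq. The degenerate NF-kB consensus, searched on both strands, was found in the MIR3142HG window and in 11.3% of the 35116 promoter windows of that table. The STAT motif TTCNNNGAA and the AP-1 motif TGANTCA, which read the same on both strands, were found in the MIR155HG window and in 7.66% and 7.71% of all windows. The VMP1 window, at chr17:59707404-59707703, held no match to any of the 3 motifs. It lies at the start of VMP1, far from the MIR21 hairpin, and sequence near that hairpin was not searched. The windows with a match, with the motifs in capitals, were as follows.
MIR3142HG, chr5:160468001-160468300, plus strand: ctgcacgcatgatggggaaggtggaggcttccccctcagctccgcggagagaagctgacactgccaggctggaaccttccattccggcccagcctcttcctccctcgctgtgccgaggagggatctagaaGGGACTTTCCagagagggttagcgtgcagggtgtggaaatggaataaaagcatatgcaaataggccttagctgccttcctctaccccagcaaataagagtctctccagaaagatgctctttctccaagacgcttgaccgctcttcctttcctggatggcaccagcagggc
MIR155HG, chr21:25561895-25562194, plus strand: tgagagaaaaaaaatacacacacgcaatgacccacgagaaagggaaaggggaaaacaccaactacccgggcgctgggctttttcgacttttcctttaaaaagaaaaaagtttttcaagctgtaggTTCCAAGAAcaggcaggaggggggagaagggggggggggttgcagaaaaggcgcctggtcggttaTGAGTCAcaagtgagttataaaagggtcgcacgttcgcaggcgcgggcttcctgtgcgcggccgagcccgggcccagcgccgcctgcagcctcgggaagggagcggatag
A match describes the letters only, and no binding was measured.

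The authors deposited raw read counts per mature miRNA, and between 6818497 (HCT116-R) and 7140460 (RKO) counts were assigned to miRNAs per library. Levels are given as CPM, the count of a miRNA scaled by the total of its library, with 95% Wilson confidence intervals that cover counting error only. At this depth, 3 counts corresponded to 0.420 to 0.440 CPM. The 8 epithelial marker miRNAs (the miR-200 family, miR-192-5p, miR-194-5p and miR-215-5p) summed to 62978 CPM (HCT116), 58544 CPM (HCT116-R), 10096 CPM (RKO) and 11703 CPM (RKO-R). Of these, miR-215-5p alone was at 0 outside HCT116-R. The others were lower in RKO than in HCT116 by unlike amounts. miR-200c-3p was at 42717 CPM (HCT116) and 90.9 CPM (RKO), and miR-141-3p at 972 and 2.38 CPM. miR-200a-3p (2113 and 1840 CPM) and miR-192-5p (226 and 220 CPM) differed little. Because RNA came from whole cultures, fewer cells with a miRNA and less of it per cell cannot be told apart.

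miR-155-5p separated the cell lines. Its counts were 14 (HCT116), 157 (HCT116-R), 33913 (RKO) and 39597 (RKO-R). In HCT116 the level was 2.05 CPM (1.22 to 3.44), and in HCT116-R it was 23.0 CPM (19.7 to 26.9). RKO held 4749 CPM (4699 to 4800) and RKO-R 5728 CPM (5672 to 5784). Both RKO libraries were thus far above both HCT116 libraries, and none of the intervals overlapped. By rank, miR-155-5p was 515th of the 1105 miRNAs listed for HCT116 and 254th of the 1198 for HCT116-R, but 33rd of 1006 for RKO and 32nd of 992 for RKO-R.

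miR-21-5p was among the most abundant miRNAs of every library. Its counts were 821669 (HCT116), 617082 (HCT116-R), 658050 (RKO) and 870800 (RKO-R), or 12.0%, 9.05%, 9.22% and 12.6% of all counts. It ranked 1st in HCT116, 2nd in both radioresistant lines and 3rd in RKO. The order from low to high was HCT116-R, RKO, HCT116 and RKO-R, at 90501, 92158, 120422 and 125963 CPM, so the low and the high pair of libraries each held a parental and a radioresistant line. The counting intervals did not overlap, although with 1 library per line the spread between cultures is unknown. Of the summed counts of the 4 miRNAs, miR-21-5p took 99.9% in both HCT116 libraries, 95.1% in RKO and 95.6% in RKO-R.

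miR-146a-5p and miR-146b-5p, feedback inhibitors of the NF-kB pathway, were present at low levels, and the balance between them differed by library. Counts of miR-146a-5p were 90 (HCT116), 135 (HCT116-R), 140 (RKO) and 308 (RKO-R), or 13.2 (10.7 to 16.2), 19.8 (16.7 to 23.4), 19.6 (16.6 to 23.1) and 44.6 CPM (39.8 to 49.8). RKO-R stood above the others, and the intervals of HCT116-R and RKO overlapped. Counts of miR-146b-5p were 359 (HCT116), 271 (HCT116-R), 113 (RKO) and 91 (RKO-R), or 52.6 (47.4 to 58.3), 39.7 (35.3 to 44.8), 15.8 (13.2 to 19.0) and 13.2 CPM (10.7 to 16.2). Here the HCT116 libraries were high and the RKO libraries low, and the intervals of RKO and RKO-R overlapped.

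**Figure D1:**
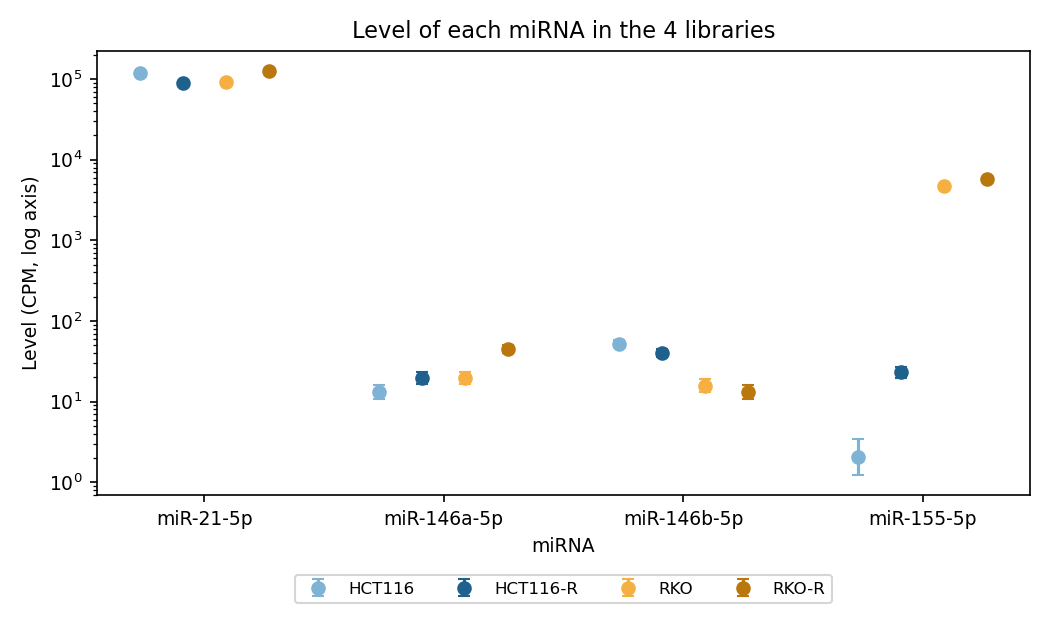
Level of each of the 4 miRNAs in CPM (log axis) in HCT116, HCT116-R, RKO and RKO-R, 1 point per library, with 95% Wilson intervals for counting error. miR-155-5p runs from 2.05 CPM in HCT116 to 5728 CPM in RKO-R, while miR-21-5p stays between 90501 and 125963 CPM.

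The sum of both miR-146 miRNAs was 65.8 CPM (HCT116), 59.5 CPM (HCT116-R), 35.4 CPM (RKO) and 57.7 CPM (RKO-R). miR-146a-5p made up 20.0% (16.6 to 24.0) of the sum in HCT116 and 33.3% (28.8 to 38.0) in HCT116-R, and the share reached 55.3% (49.2 to 61.3) in RKO and 77.2% (72.8 to 81.0) for RKO-R. The share was therefore higher in each radioresistant line than in its parental line and higher in RKO lines than in HCT116 lines, with no overlap of the counting intervals. How the authors' counting treated reads that end before base 18 was not tested.

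**Figure D2:**
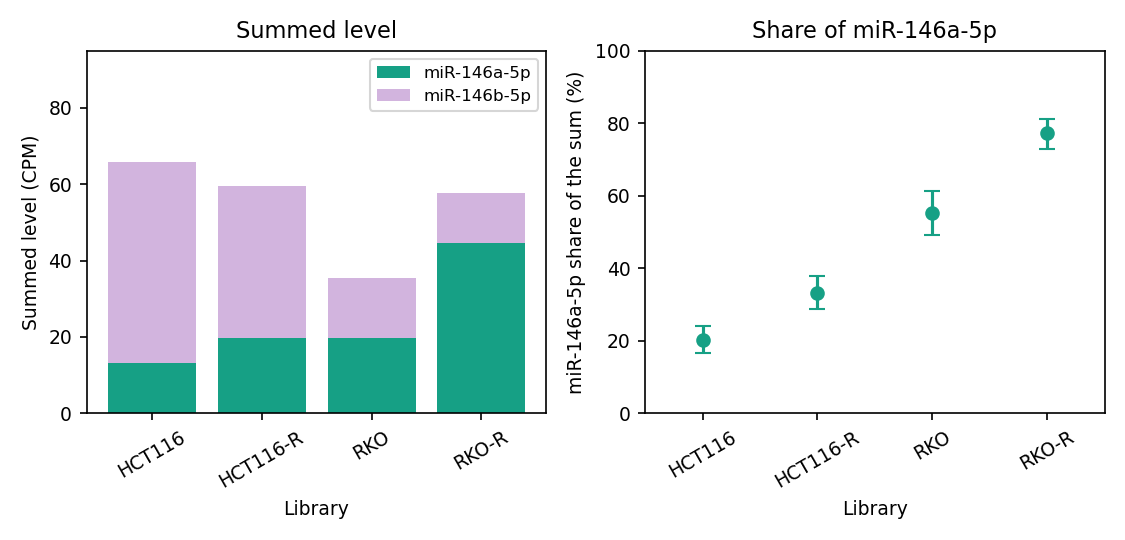
Left, summed level of miR-146a-5p and miR-146b-5p in CPM in each library, stacked by miRNA. Right, the share of miR-146a-5p in that sum in percent, with 95% Wilson intervals, which runs from 20.0% in HCT116 to 77.2% in RKO-R.

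The comparison of HCT116-R with HCT116 asked which of these miRNAs differed between the radioresistant and the parental library. Between these libraries, miR-155-5p was upregulated and the other 3 members were not called. In CPM, miR-155-5p was 11.2-fold higher in HCT116-R (6.49 to 21.0, exact 95% interval for counting error). Its log2 fold change was 3.45 (SE 0.57), with an adjusted p of 4.2e-08 by the exact test of edgeR at an assumed biological coefficient of variation (BCV) of 0.2. This was 1 of the 4 members, where 4.01% of the 1322 miRNAs tested were called in either direction and 26% of the 639 with at least 10 counts in a library differed at least 2-fold in CPM. By size of the log2 fold change, miR-155-5p was 14th of 693 miRNAs with more than 3 counts in both libraries. At a BCV of 0.4 its adjusted p by edgeR was 0.0288.

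In the same pair, miR-21-5p was 1.33-fold lower in HCT116-R in CPM, with a log2 fold change of -0.43 (SE 0.41) and an adjusted p of 0.93 by edgeR. miR-146a-5p was 1.50-fold higher (1.14 to 1.98), with an adjusted p of 0.896 by edgeR. miR-146b-5p was 1.32-fold lower, with an adjusted p of 0.979 by edgeR. These differences were larger than counting error and within the assumed spread of the test.

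The rise of miR-155-5p in HCT116-R began from 14 counts, and its level there was 0.485% of that in RKO, against 0.0432% in HCT116. After the values had been seen, the other miRNAs with at least 200 counts in RKO and a level in HCT116 of at most 5% of that in RKO were listed for comparison, and 3 were found. Counts of miR-598-3p were 0 (HCT116), 1 (HCT116-R), 211 (RKO) and 165 (RKO-R). miR-152-3p had 27, 28, 1641 and 864 counts, so its level in HCT116-R, at 1.79% of that in RKO, was close to the 1.72% in HCT116. miR-339-5p had 17, 216, 696 and 95 counts and went from 2.56% to 32.5% of its RKO level. The excess of HCT116-R over HCT116, as a percentage of the level in RKO, was 0.442% for miR-155-5p, 0.496% for miR-598-3p, 0.0650% for miR-152-3p and 29.9% for miR-339-5p. All 3 were higher in HCT116-R than in HCT116, by 1 count for miR-598-3p and for miR-152-3p. As the list required a low level in HCT116, the choice itself favoured a higher level in HCT116-R, so this direction is not a result. Whether these miRNAs share a source with miR-155-5p was not tested.

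Markers of blood cells, in which miR-155 is well known, were low in all libraries. The 6 haematopoietic miRNAs listed (miR-142-3p, miR-142-5p, miR-223-3p, miR-150-5p, miR-451a and miR-144-3p) summed to 30.6 (HCT116), 29.2 (HCT116-R), 15.8 (RKO) and 12.4 CPM (RKO-R), with 5, 6, 5 and 4 of the 6 listed. miR-142-3p, which blood cells make in abundance, had 26 (HCT116), 66 (HCT116-R), 2 (RKO) and 2 counts (RKO-R), and miR-142-5p was at 0 in both RKO libraries. The sum was lower in the RKO libraries, but miR-150-5p went the other way, at 27 (HCT116), 37 (HCT116-R), 53 (RKO) and 47 counts (RKO-R). Within the HCT116 pair, miR-142-3p, miR-142-5p, miR-150-5p and miR-144-3p were higher in HCT116-R, the library with more miR-155-5p. In the other direction, miR-223-3p went from 54 counts (HCT116) to 6 (HCT116-R), and miR-451a from 85 to 62. The list thus had no common direction in this pair. The 3 stromal and endothelial miRNAs summed to 4248, 3606, 8338 and 8095 CPM, nearly all of it miR-126-3p, and miR-145-5p was at 0 in RKO. Their part in the difference between lines was not tested.

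Between RKO-R and RKO, miR-146a-5p was upregulated and the other 3 members were not called. In CPM, miR-146a-5p was 2.27-fold higher in RKO-R (1.85 to 2.80). Its log2 fold change was 1.42 (SE 0.43), with an adjusted p of 0.0328 by the exact test of edgeR. This was again 1 of the 4 members, where 5.54% of the 1155 miRNAs tested were called and 33.6% of the 539 with at least 10 counts in a library differed at least 2-fold in CPM. By size, miR-146a-5p was 79th of 584 miRNAs with more than 3 counts in both libraries. With library totals in place of TMM, the log2 fold change was 1.18 and the adjusted p by edgeR was 0.0925, so the call depended on the scaling, and at a BCV of 0.4 it was lost as well (adjusted p = 1 by edgeR). For miR-146a-5p and miR-146b-5p together, the log2 fold change was 0.94 and the adjusted p by edgeR was 0.275.

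The TMM factors moved all log2 fold changes up by 0.24 in the RKO pair relative to plain CPM, as the log2 ratio of the factors was -0.24. miR-21-5p was 1.37-fold higher in RKO-R in CPM, with a log2 fold change of 0.69 (SE 0.41) and an adjusted p of 0.534 by edgeR. miR-155-5p was 1.21-fold higher in CPM (1.19 to 1.22), and edgeR gave a log2 fold change of 0.51 (SE 0.41) and an adjusted p of 0.806. miR-146b-5p was 1.20-fold lower in CPM, with an interval of the ratio from 0.624 to 1.11, and its log2 fold change was -0.03 (SE 0.46), or 0.10 with the size factors of DESeq2. A difference of miR-146b-5p in this pair was not detectable at this depth.

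**Figure D3:**
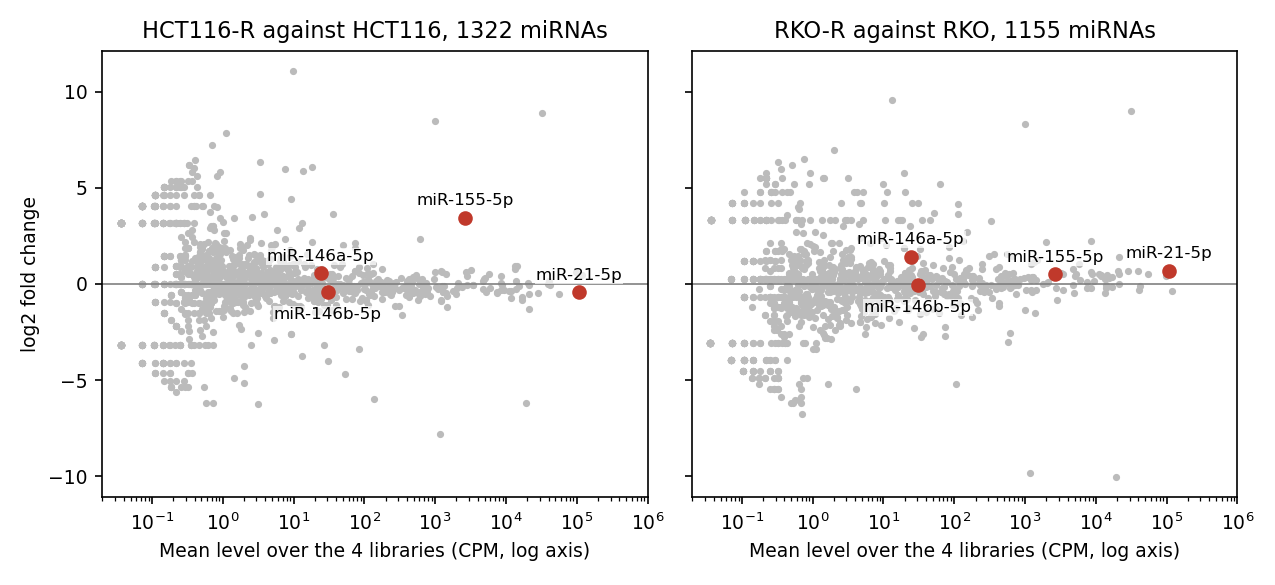
log2 fold change of every tested miRNA between radioresistant and parental library against its mean level over the 4 libraries in CPM (log axis), for the HCT116 pair (1322 miRNAs) and the RKO pair (1155 miRNAs), with the 4 members in red. miR-155-5p lies at 3.45 in the HCT116 pair and at 0.51 in the RKO pair.

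The parental lines were compared to show how far the lines differed before any irradiation. Of the 4 members, miR-155-5p was upregulated and miR-146b-5p downregulated in RKO compared with HCT116, where 25.5% of the 1289 miRNAs tested were called, so a count of 2 is read against a high background. A difference of at least 2-fold in CPM was seen for 59.9% of the miRNAs with at least 10 counts in a library. miR-155-5p was 2315-fold higher in RKO in CPM (1379 to 4234), and edgeR gave a log2 fold change of 11.04 (SE 0.56) and an adjusted p of 2.8e-60. It had the largest fold change of the 561 miRNAs with more than 3 counts in both libraries. miR-146b-5p was 3.32-fold lower in RKO (2.68 to 4.14) in CPM, at a log2 fold change of -1.86 (SE 0.44) and an adjusted p of 0.000271 by edgeR, or 0.185 at a BCV of 0.4.

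The other members were not called between the parental lines. miR-146a-5p was 1.49-fold higher in RKO in CPM, with an adjusted p of 0.618 by edgeR. miR-21-5p was 1.31-fold lower in RKO in CPM, with a log2 fold change of -0.51 (SE 0.41) and an adjusted p of 0.466 by edgeR. The TMM factors moved all log2 fold changes down by 0.13 here. As a sum, miR-146a-5p and miR-146b-5p had a log2 fold change of -1.02, which was not called (adjusted p = 0.0680 by edgeR).

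Between the radioresistant lines, RKO-R and HCT116-R, 3 of the 4 members were called, where 23.2% of the 1333 miRNAs tested were called and 58.3% of those with at least 10 counts in a library differed at least 2-fold in CPM. miR-155-5p was 249-fold higher in RKO-R in CPM (213 to 293), and edgeR gave a log2 fold change of 8.29 (SE 0.42) and an adjusted p of 4.3e-45. It again had the largest fold change, here of 566 miRNAs. miR-146a-5p was 2.25-fold higher in RKO-R (1.83 to 2.78) in CPM, at a log2 fold change of 1.50 (SE 0.43) and an adjusted p of 0.00477 by edgeR. miR-146b-5p was 3.02-fold lower (2.37 to 3.87) in CPM, at a log2 fold change of -1.26 (SE 0.44) and an adjusted p of 0.0256 by edgeR. At a BCV of 0.4 neither of these miR-146 calls held, with adjusted p of 0.369 and 0.535 by edgeR.

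miR-21-5p was 1.39-fold higher in RKO-R than in HCT116-R in CPM, with an adjusted p of 0.162 by edgeR, while it was lower in RKO than in HCT116. The opposite movements of the miR-146 miRNAs nearly cancelled in their sum, which had a log2 fold change of 0.29 and an adjusted p of 0.787 by edgeR. In this comparison the TMM factors differed by -0.33 on the log2 scale, which moved all log2 fold changes up by that amount relative to CPM.

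**Figure D4:**
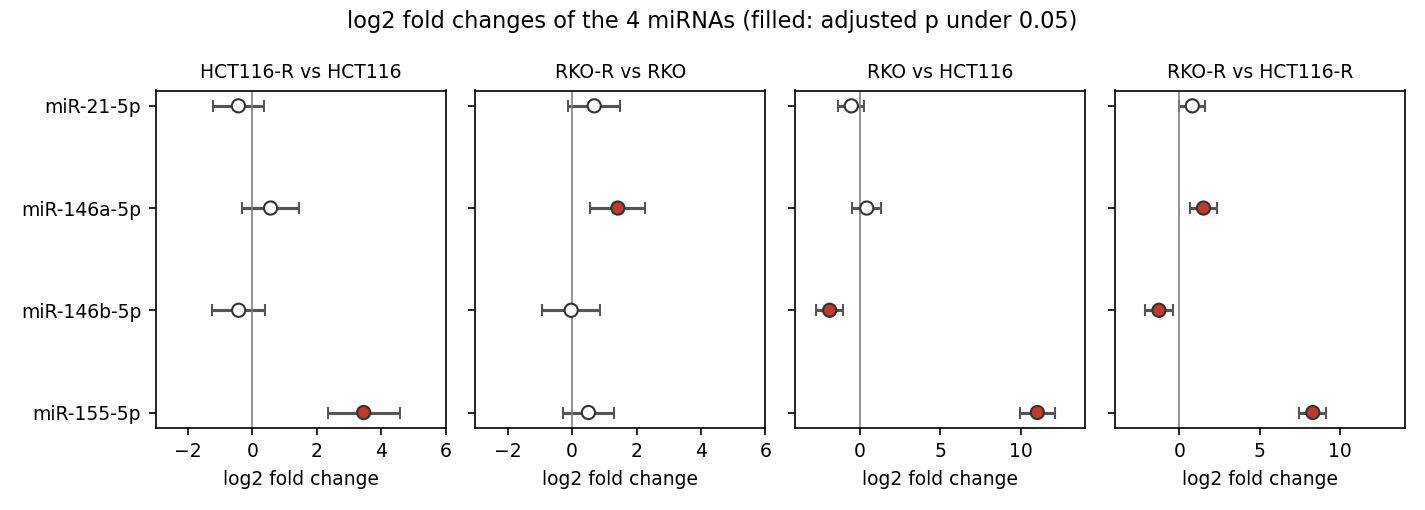
log2 fold changes of the 4 miRNAs in the 4 comparisons of libraries, with 95% intervals that rest on the assumed BCV of 0.2, and with filled points where the adjusted p of edgeR was under 0.05. The panels between lines have a wider axis, as miR-155-5p reaches 11.04 there.

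When all 4 libraries were fitted together by the quasi-likelihood test of edgeR, with cell line and radioresistance as factors, 598 miRNAs passed the filter on low counts, all 4 members among them. Between the lines, 28.3% of these miRNAs were called, and of the members miR-155-5p alone was called, with a log2 fold change of 9.56 (SE 1.02) and an adjusted p of 0.00314 (0.0502 with the size factors of DESeq2). miR-146b-5p had -1.56 (SE 0.56) with an adjusted p of 0.0911, and miR-146a-5p 0.98 (SE 0.58) with an adjusted p of 0.273. For radioresistance over both lines, 0 of the 4 members were called by edgeR, where 0.669% of the miRNAs were called and 10 of the 598 had an unadjusted p under 0.05. miR-155-5p had a log2 fold change of 1.83 (SE 0.79) and an unadjusted p of 0.0565 in this edgeR fit, and miR-146a-5p had 0.97. This fit has 1 residual degree of freedom, and its spread is the part that line and radioresistance leave unexplained.

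The change from the parental to the radioresistant library was also compared between the lines. For miR-155-5p, the change in the RKO pair minus that in the HCT116 pair was -2.98 on the log2 scale (SE 0.69), with an adjusted p of 0.000932 by the likelihood ratio test of edgeR at a BCV of 0.2. Thus, as a fold change, the rise in HCT116-R exceeded the difference in the RKO pair beyond the assumed spread, where 4.75% of 1474 miRNAs were called. In CPM the RKO pair differed by more, at 4749 (RKO) and 5728 (RKO-R) against 2.05 (HCT116) and 23.0 (HCT116-R). At a BCV of 0.4 this difference was not called (adjusted p = 0.398 by edgeR). The difference between the pairs was 1.09 for miR-21-5p (SE 0.58), 0.82 for miR-146a-5p (SE 0.63) and 0.36 for miR-146b-5p (SE 0.62), with adjusted p of 0.370, 0.656 and 1.00 by edgeR. The call of miR-146a-5p in the RKO pair is thus not shown to be particular to RKO.

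The opposite arms of the hairpins, which the choice of members did not use, were far less abundant. Counts of miR-21-3p were 5804 (HCT116), 3821 (HCT116-R), 7142 (RKO) and 6986 (RKO-R). Its share of the hairpin's counts was 0.701%, 0.615%, 1.07% and 0.796%, so the 5p arm prevailed in all 4 libraries. miR-21-3p was 1.80-fold higher in RKO-R than in HCT116-R in CPM, with a log2 fold change of 1.18 (SE 0.41) and an adjusted p of 0.0223 by edgeR. With library totals in place of TMM, this log2 fold change was 0.85 and the adjusted p by edgeR was 0.141, and at a BCV of 0.4 it was 0.557. In the other 3 comparisons of libraries it was not called.

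miR-155-3p was at 0 counts in both HCT116 libraries and had 38 (RKO) and 41 counts (RKO-R) in the others. Against the limit of 3 counts per library, it was at least 12.1-fold higher in RKO than in HCT116 and at least 13.5-fold higher in RKO-R than in HCT116-R, with adjusted p of 7.0e-07 and 5.4e-08 by edgeR. It made up 0.112% of the hairpin's counts in RKO and 0.103% in RKO-R. At such a share, the 157 counts of miR-155-5p in HCT116-R would leave the 3p arm below what this depth can detect. miR-146a-3p had 0 counts in all 4 libraries, and miR-146b-3p had 1 count in HCT116 and 1 in RKO.

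In RefSeq, miR-590-5p (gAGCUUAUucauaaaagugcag) carries the seed of miR-21-5p. Its counts were 63 (HCT116), 68 (HCT116-R), 87 (RKO) and 90 (RKO-R), at 9.23 to 13.0 CPM, so miR-21-5p supplied nearly all counts of this seed in each library. miR-7153-5p carries the miR-146 seed and had 0 counts in all 4 libraries.

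For each member, the 3 miRNAs with the nearest pattern over the 4 libraries were found by the Euclidean distance between log2(CPM + 0.5) values centred on their means, among 345 miRNAs with at least 100 counts in a library. For miR-21-5p these were miR-26a-5p (distance 0.243), miR-181a-3p (0.251) and miR-101-3p (0.281). Counts of miR-26a-5p were 237082 (HCT116), 173753 (HCT116-R), 159104 (RKO) and 209338 (RKO-R). For miR-146b-5p they were miR-25-5p (0.303), miR-23b-3p (0.322) and miR-561-5p (0.353), all lower in the RKO libraries than in the HCT116 libraries.

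For miR-146a-5p the nearest miRNAs were let-7c-5p (0.540), miR-589-3p (0.613) and let-7f-5p (0.656), and let-7c-5p had 226, 430, 414 and 1282 counts in HCT116, HCT116-R, RKO and RKO-R. For miR-155-5p they were miR-598-3p (4.33), miR-152-3p (4.79) and miR-3152-5p (5.30), at distances that left miR-155-5p without a near neighbour. With a pseudocount of 1 and a minimum of 10 counts, 2 of the 3 neighbours of miR-21-5p, 0 of those of miR-146a-5p, 0 of those of miR-146b-5p and 3 of those of miR-155-5p were found again among 712 miRNAs.

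Another 16 miRNAs linked to NF-kB, STAT3 or inflammatory signalling were listed beside the members, and 15 of them had counts (miR-147b had none). The shares over all miRNAs tested between libraries, given below, include many with few counts, which can hardly be called. With at least 10 counts in a library required, 62 of 639 miRNAs were called in the HCT116 pair by edgeR. In the HCT116 pair, 0 of 15 were called higher and 2 lower by the exact test of edgeR, where 4.01% of all miRNAs tested were called, with a median log2 fold change of 0.00 against 0.07 over all miRNAs tested. In the RKO pair, 2 of 14 were called higher and 0 lower, where 5.54% of all were called, with a median of 0.46 against 0.02.

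miR-199a-5p and miR-210-3p, a miRNA induced by hypoxia, accounted for most of these calls. Counts of miR-199a-5p were 256 (HCT116), 19 (HCT116-R), 0 (RKO) and 86 (RKO-R). It was 13.5-fold lower in HCT116-R than in HCT116 and at least 29.6-fold higher in RKO-R than in RKO, so it moved in opposite directions in the pairs. The stromal marker miR-143-3p had the same directions in CPM, at 254 (HCT116), 122 (HCT116-R), 7.14 (RKO) and 75.5 CPM (RKO-R). So did miR-145-5p, at 45.0, 32.4, 0 and 0.868 CPM, the last from 6 counts. miR-126-3p, which made up nearly all of the stromal and endothelial sum, was lower in each radioresistant line than in its parental line. Its levels were 3949 (HCT116), 3452 (HCT116-R), 8331 (RKO) and 8018 CPM (RKO-R). The part of these markers in the result was not tested. miR-210-3p had 119, 151, 51 and 336 counts, and it rose in RKO-R at 6.80-fold in CPM (5.06 to 9.33). The remaining call was miR-223-3p, a miRNA of myeloid cells, with 54 counts in HCT116 and 6 in HCT116-R. For these 3 miRNAs the difference between the pairs was called by the likelihood ratio test of edgeR, where 4.75% of all 1474 miRNAs were called. For the other 12 tested it was not.

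Between the parental lines, 1 of the 15 was called higher in RKO and 6 lower by edgeR, where 25.5% of all miRNAs tested were called, with a median log2 fold change of -0.21 against -0.18 over all miRNAs. With miR-199a-5p at its bound and miR-224-5p left out, as it had at most 3 counts in both libraries, the median was -0.13, and in the other 3 comparisons of libraries the medians stayed the same. miR-9-5p, which represses the NF-kB subunit gene NFKB1, had 5218 (HCT116), 4673 (HCT116-R), 17 (RKO) and 41 counts (RKO-R). Between the lines it thus ran opposite to miR-155-5p, with log2 fold changes of -8.44 between the parental and -6.51 between the radioresistant lines. Within the RKO pair both were higher in RKO-R in CPM, miR-9-5p at 2.49-fold and miR-155-5p at 1.21-fold. Within the HCT116 pair miR-9-5p was lower in HCT116-R in CPM and miR-155-5p higher. miR-125b-5p and miR-187-3p were also lower in RKO than in HCT116, at log2 fold changes of -2.13 and -5.36, and miR-29b-3p was higher, at 1.46. miR-210-3p was lower at -1.41, miR-199a-5p was at least 89.3-fold lower, and miR-223-3p, at 3 counts in RKO, was 18.8-fold lower in CPM (6.11 to 94.2).

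Between the radioresistant lines, 4 of the 15 were called higher in RKO-R and 3 lower, where 23.2% of all were called, with a median of 0.55 against -0.59 over all miRNAs. miR-199a-5p, miR-210-3p, miR-29b-3p and miR-301a-3p were higher, at 2.48, 1.47, 1.55 and 1.53 on the log2 scale. miR-9-5p and miR-125b-5p were lower, at -6.51 and -2.55. miR-187-3p, at 2 counts in RKO-R against 80 in HCT116-R, was 40.6-fold lower in CPM (10.9 to 341). In the fit of all 4 libraries by the quasi-likelihood test of edgeR, 1 of 13 was called higher and 3 lower between the lines. This is near the share over all 598 miRNAs of that fit, of which 28.3% were called. For radioresistance 0 of 13 were called, where 0.669% of all were called.

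miR-222-3p, which is abundant in many tumours and was picked for its level after the values were seen, exceeded miR-21-5p in HCT116-R and RKO. Its counts were 714088 (HCT116), 1003826 (HCT116-R), 936559 (RKO) and 587757 (RKO-R), and it was not called in any of the 4 comparisons of libraries. Its order was the reverse of that of miR-21-5p within both pairs.

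**Figure D5:**
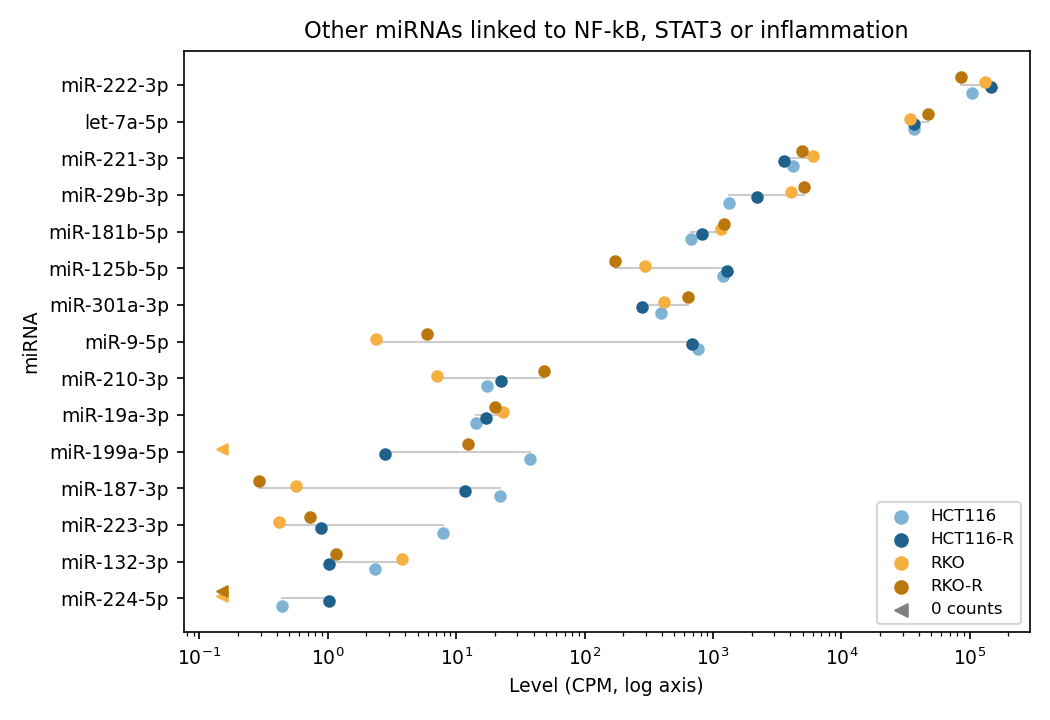
Levels in CPM (log axis) of the 15 other listed miRNAs tied to NF-kB, STAT3 or inflammation in each library, with triangles at the left for 0 counts. miR-222-3p is the most abundant, and miR-9-5p has 5218 counts in HCT116 against 17 in RKO.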

How the data were processed

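For each of 4 small RNA libraries (HCT116, HCT116-R, RKO and RKO-R, 1 per line), the authors deposited a table of unnormalized read counts by miRNA. Adapters carried unique molecular identifiers, and sequencing was done on the BGISEQ-500. The submitters' processing notes name Bowtie2 and hg38. The miRNA annotation, the use of strand and the collapsing of identifiers are not given in the sources used here. Each table lists only miRNAs with counts, so a missing miRNA was set to 0.

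Groups came from the sample labels. The members and gene lists were chosen with earlier results of these data known. The members, their opposite arms, the called miRNAs of the signalling list with at least 100 counts and the 3 nearest patterns per member were named, and others were chosen after their values were seen.

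Counts were scaled by library totals to CPM. Shares have 95% Wilson intervals, and ratios of counts have exact conditional intervals. Libraries were compared with the exact test of edgeR (4.0.16, R 4.3.3) with TMM and a BCV of 0.2, the value of the study's methods, with p-values adjusted by Benjamini-Hochberg across every miRNA detected in the pair. Standard errors derive from the counts and that BCV. Calls have an adjusted p under 0.05. All libraries together were fitted by quasi-likelihood (line and radioresistance as factors, low counts filtered), and the difference between pairs by a likelihood ratio test at a BCV of 0.2. The cell line pairs the libraries, since each radioresistant line was derived from the parental line of its name, and HCT116 and HCT116-R deviated together from the group means (r = 0.80 across miRNAs, which are not independent replicates). The tests were also run on counts simulated at the same BCV of 0.2, so this run cannot check that assumed spread. Alternatives were other BCVs, scalings, filters and tests, DESeq2 (1.42.0) among them. Computations used Python 3.11.15, numpy 2.4.6, pandas 2.3.3 and scipy 1.17.1.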

Additional observations from a re-analysis of the deposited data

Results flagged for a closer look

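The change of miR-155-5p differed between the lines. Its log2 fold change in the RKO pair minus that in the HCT116 pair was -2.98 (SE 0.69, adjusted p = 0.000932 by the likelihood ratio test of edgeR at a BCV of 0.2). HCT116 had 14 counts of it against 157 for HCT116-R, and RKO had 33913 against 39597 for RKO-R. At a BCV of 0.4 the adjusted p by edgeR was 0.398. With 1 library per line, the difference has no replicate check.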

How the results depend on the processing

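The upregulation of miR-155-5p in HCT116-R was called under all 8 alternatives (log2 fold change 3.38 to 3.51, adjusted p by edgeR 1.4e-17 to 0.0288), as was its difference between the parental and between the radioresistant lines. At a BCV of 0.1, miR-21-5p was called in RKO-R against RKO (0.69), RKO against HCT116 (-0.51), RKO-R against HCT116-R (0.81) and in the difference between the pairs (1.09), and 154 miRNAs were called in the HCT116 pair, 148 in the RKO pair and 178 in the difference. At a BCV of 0.4, miR-146a-5p in the RKO pair (1.42) and between the radioresistant lines (1.50), miR-146b-5p in both line comparisons (-1.86 and -1.26) and the difference of miR-155-5p (-2.98) were no longer called. The calls were then 24 in the HCT116 pair, 9 in the RKO pair, 152 and 140 between the parental and the radioresistant lines, and 14 in the difference. The BCV estimated from the 4 libraries was 0.481, above every BCV tried, so the comparisons of libraries were not run at that spread. It comes from the fit with line and radioresistance as factors, so it includes any difference between the pairs.

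Without TMM, miR-146a-5p in the RKO pair was not called (1.18), the calls of that pair went from 29 higher and 35 lower to 20 and 54, those of the difference from 32 and 38 to 25 and 56, and radioresistance had 2 calls in place of 4. With the size factors of DESeq2, miR-146b-5p in the RKO pair was 0.10, miR-155-5p missed the threshold between lines (9.62, adjusted p by edgeR 0.0502), the RKO pair had 31 higher and 19 lower, and 0 miRNAs were called for line and for radioresistance by edgeR (206 and 9 at an unadjusted p under 0.05). With miR-146a-5p and miR-146b-5p summed, the log2 fold change was -0.17 in the HCT116 pair, 0.94 in the RKO pair, -1.02 between the parental and 0.29 between the radioresistant lines, and the summed levels were 65.8, 59.5, 35.4 and 57.7 CPM. At a BCV of 0.2 without an estimated spread, 356 miRNAs were called for line and 39 for radioresistance, miR-146a-5p (0.99) and miR-146b-5p (-1.56) for line, and miR-146a-5p (0.98) and miR-155-5p (1.56) for radioresistance. The DESeq2 Wald test called 111 for line, and the fit without a filter 11 for radioresistance. The causes were not tested.

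Without the replicate block, the pairing by cell line, radioresistance had 0 calls by edgeR (4 at an unadjusted p under 0.05) in place of 4. With radioresistance left out, miR-146b-5p was called between lines (-1.58, adjusted p by edgeR 0.0348). No library could be left out in turn, as each group had 1. Counts under 100, as for miR-155-5p in HCT116, limit precision.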
